A study of Rattus norvegicus with 2 samples.

Results

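Protocadherins are cell adhesion proteins of the cadherin superfamily, and 56 of the 22777 genes with mRNA transcripts in the rat hypothalamus data are protocadherin genes. They were taken as every gene whose name in the deposited comparison table starts with Pcdh in upper or lower case, and all 68 of their transcripts were found in the deposited mRNA table. By their symbols, 9 belong to the alpha cluster, 19 to the beta cluster, 16 to the gamma cluster and 12 lie outside the clusters. Names are spelled as in the files, so that PCDHA4 and Pcdha6 are both rat alpha genes.

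The study compared the hypothalamus of female Sprague Dawley rats before and at puberty by RNA-seq of RNA depleted of ribosomal RNA. Prepubertal rats were taken on postnatal day 25 and pubertal rats on postnatal day 35, with vaginal opening as the mark of puberty and 3 rats per stage. No treatment or altered allele was given. The deposited values come as 1 column for each stage, without a word on the pooling of the 3 animals, so each stage counts as 1 library here and no difference between stages could be tested against the spread between animals.

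The clustered protocadherin genes lie in tandem on 1 chromosome. In the alpha and gamma clusters each variable exon has its own promoter and is spliced to constant exons that the cluster shares, whereas beta genes are made of a variable exon alone. Neurons choose a few of these promoters each, with the help of the insulator protein CTCF and the cohesin complex, and the proteins bind like with like on the membranes of neighbouring cells, which is known for its part in the self-avoidance of dendrites. Non-clustered protocadherins are single genes with their own expression patterns in the brain, most of them divided into the delta1 and delta2 subfamilies by their cytoplasmic motifs.

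Promoters of clustered genes are known to share an element with the core CGCT, so the RefSeq promoter windows of the rat assembly GRCr8 were searched for it, from 250 bases before to 50 bases after each annotated start. A window was matched by symbol for 37 of the 56 genes, comprising 15 beta, 11 gamma and 11 non-clustered genes and none of the alpha genes. On either strand, the letters CGCT were in 14 of 15 beta, 10 of 11 gamma and 9 of 11 non-clustered windows, against 60.9% of all 33469 windows, so this short core alone does not mark the clustered genes. A longer motif was then derived from each cluster's own windows, as the letters among the 10 bases before CGCT that at least 90% of its windows shared. CNCNNGGTGGCGCT was in 13 of 15 beta windows, in 0 of 11 gamma and 0 of 11 non-clustered windows, and in 0.0777% of all windows. CTCTNNGNGNCGCT was in 10 of 11 gamma windows, in 0 beta and 0 non-clustered windows, and in 0.123% of all windows. Both longer motifs contain CGCT and were searched on both strands. Since they were made from the clusters' windows, their counts there describe how far the windows share letters and are no test.

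The beta windows of the genes described below are shown because they carry the shared letters. Each run holds 28 bases on the plus strand of chromosome 18 in GRCr8, 5′ to 3′, with CGCT in capitals.
Pcdhb3, chr18:29285605-29285632: tgaacgcatggtggCGCTgttgactaag
Pcdhb5, chr18:29302405-29302432: tgaacgcagggtggCGCTgcaggctaag
Pcdhb8, chr18:29339259-29339286: aggacacacggtggCGCTgcagtctaag
Pcdhb9, chr18:29379249-29379276: aagacacagggtggCGCTgcaggctaag
Pcdhb10, chr18:29391779-29391806: gggacgcgtggtggCGCTgtctactaag
Pcdhb12, chr18:29413649-29413676: aggacgcttggtggCGCTgcaggctaag
Pcdhb19, chr18:29478765-29478792: aagacacatggtggCGCTgcaggataat

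The gamma windows of the genes described below carry the other motif, in the same strand and build, again with CGCT in capitals.
Pcdhga3, chr18:29750316-29750343: aggcctctgggtgtCGCTgttgaccaca
Pcdhga7, chr18:29794206-29794233: aggactctgcgtgcCGCTgttcaccaac
Pcdhga9, chr18:29815784-29815811: agggctctgagcgcCGCTgttcaccaac
Pcdhga10, chr18:29825815-29825842: ccgactctgagcgcCGCTgttcacctac
Pcdhga12, chr18:29843863-29843890: cggactctgagcgcCGCTgttcacccac

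All of these windows lie before the annotated transcript start. Over the 13 beta genes with their motif, CGCT lay between -203 and -41 bases from the start, with a median of -63. Over the 10 gamma genes it lay between -117 and -20 bases, with a median of -51.

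Levels are given in FPKM, the fragments of a transcript scaled for its length and for the size of the library, which can be set side by side between genes. In what follows, the levels before and at puberty are those of the prepubertal and the pubertal library. The stage difference is the log2 of pubertal FPKM + 1 over prepubertal FPKM + 1, so that negative values are lower at puberty. Low FPKM values of single-transcript genes came in steps of whole fragments, from which the number of fragments behind each value was recovered. Of the values of up to 4 fragments, 92.2% of 1005 in the prepubertal and 91.3% of 1160 in the pubertal library were whole within 0.05 of a fragment. In a model of 2400 nt, 1 fragment was worth 0.0225 FPKM before and 0.0287 FPKM at puberty. Intervals in brackets are 95% intervals of these fragment numbers. They are exact for whole numbers of single genes, and approximate for numbers that were not whole and for sums. They cover counting error only, and compare the 2 libraries and not the stages.

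Both libraries held the tissue's own transcripts. All 15 genes of a list of hypothalamic peptides and releasing factors were found, with a summed level of 2869 FPKM before and 4311 FPKM at puberty, and 13 of them were higher at puberty. The 6 markers of meninges and fibroblasts were all lower at puberty in the FPKM as deposited, with summed levels of 79.2 and 52.4 FPKM, and their median was below 0 with equal Actb too. The 5 markers of oligodendrocyte progenitors were all lower as deposited, with 167 and 135 FPKM, but their median was above 0 with equal Actb. Telencephalon markers summed to 7.90 and 4.31 FPKM, with 3 of 5 lower and a median below 0 also with equal Actb. Thalamus markers summed to 700 and 697 FPKM, with 5 of 6 lower as deposited and a median above 0 with equal Actb. Mature neuron markers summed to 1481 and 1350 FPKM, with 5 of 6 lower as deposited and a median log2 difference of -0.30 (0.094 with equal Actb). Astrocyte markers summed to 1228 and 1072 FPKM, with 3 of 6 lower and a median of -0.12 (0.28 with equal Actb). Immature neuron markers summed to 1503 and 1671 FPKM, with 3 of 6 lower and a median of -0.03 (0.35 with equal Actb). Oligodendrocyte markers summed to 11834 and 12827 FPKM, with 3 of 6 lower and a median of -0.06 (0.34 with equal Actb). Choroid plexus markers summed to 38.3 and 32.2 FPKM, with 3 of 5 lower and a median of -0.17 (0.15 with equal Actb). The part of these levels in the protocadherin differences was not tested. In bulk tissue, fewer cells of a type and less RNA per cell cannot be told apart.

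Most protocadherin genes were detected at a low level. In all, 50 of the 56 reached 1 FPKM in at least 1 library. The median level was 2.69 FPKM before and 2.14 FPKM at puberty for alpha genes, 2.91 and 2.39 FPKM for beta genes, and 2.82 and 2.29 FPKM for gamma genes. Non-clustered genes had medians of 16.9 and 16.3 FPKM. The 12 non-clustered genes thus made up most of the family's summed level, with 63.7% of 410 FPKM in the prepubertal and 66.1% of 364 FPKM in the pubertal library.

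**Figure D1:**
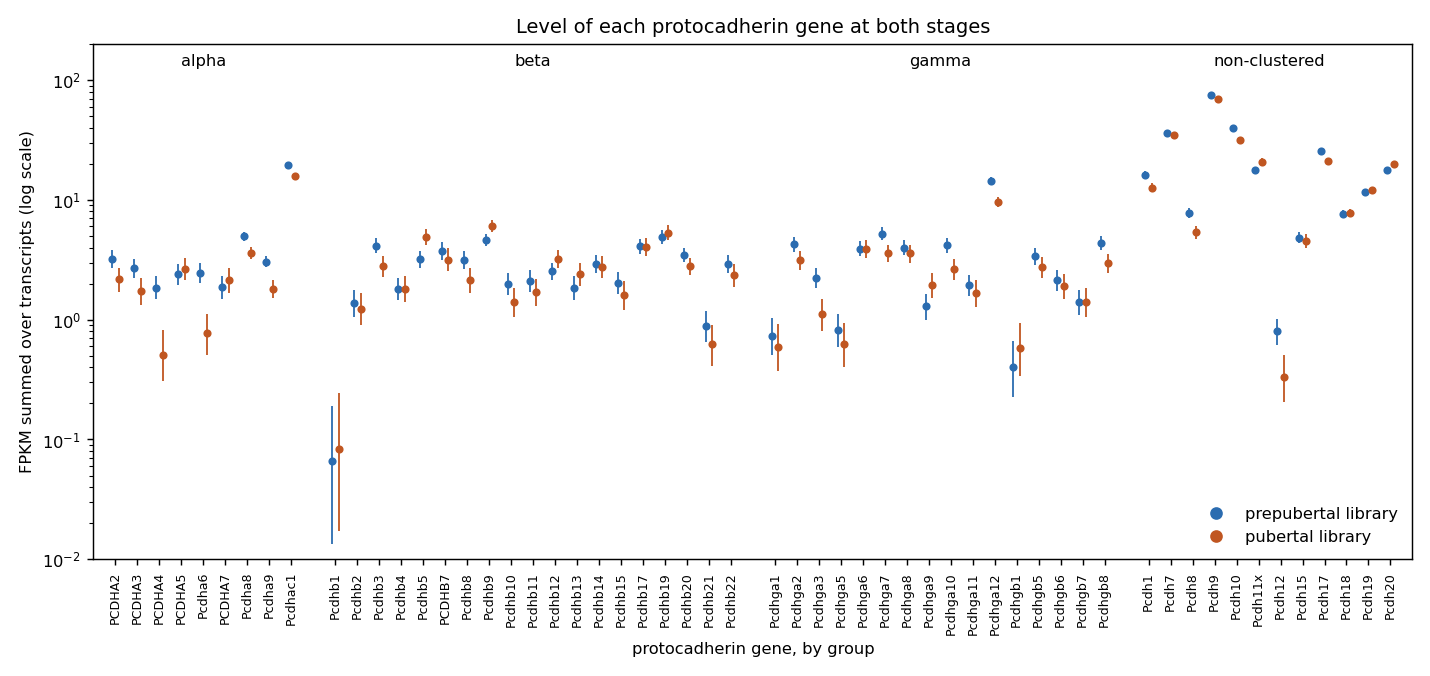
FPKM (log axis) of each of the 56 protocadherin genes in the prepubertal (blue) and the pubertal (orange) library, by group; lines are 95% counting intervals. Most clustered genes lie between 1 and 6 FPKM in both libraries, Pcdhac1 and Pcdhga12 stand above the rest of the clusters, and Pcdh9 is the highest of all at 75.3 and 69.9 FPKM.

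More protocadherin genes were lower than higher at puberty in the FPKM as deposited. Of the 56 genes 42 were lower and 14 higher (75% lower), with a median log2 difference of -0.17. Over all genes 40.4% were lower, over the 14029 genes of at least 1 FPKM 51.1%, and over those within the members' length range of 1899 to 5419 nt 57.5%. Among the 50 protocadherin genes of at least 1 FPKM, 38 were lower. Genes of that length range at 1 to under 6 FPKM, the range of most clustered members, had 61.7% lower and a median of -0.07, whereas expressed genes shorter than every member had 41.0% lower and a median of 0.06. The family's count thus stood above the backgrounds it was read against, and was nearest to that of genes of like length and level. The direction depended on the scaling: Actb itself was at 763 FPKM before and 576 FPKM at puberty, and scaling to equal Actb moved the median of all expressed genes to 0.36 and left 18 protocadherin genes lower and 38 higher, beside 10.1% of expressed genes lower with the same scaling.

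The differences were small. None of the 56 genes (0) reached 2-fold in FPKM + 1, a threshold that 0.681% of all genes passed. At 1.5-fold 3 genes were lower, PCDHA4, Pcdha6 and Pcdhga3, beside 1.86% of all genes, and 0 were higher, beside 1.43%. Without a pseudocount the same 3 genes were at least 2-fold lower among the 50 of at least 1 FPKM and 0 were at least 2-fold higher. The share among expressed genes was 1.45% for lower and 1.19% for higher, and 1.88% for lower among genes of 1 to under 6 FPKM and like length. These counts are for the FPKM as deposited. With equal Actb, PCDHA4 and Pcdha6 but not Pcdhga3 stayed at least 1.5-fold lower in FPKM + 1. Pcdhb5, Pcdhb9, Pcdhga9 and Pcdh11x were then at least 1.5-fold higher, while the median of all expressed genes moved to 0.36.

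Counting error did not cover all of the differences between the libraries. Among the 50 genes of at least 1 FPKM, the interval of the pubertal over prepubertal FPKM ratio, as deposited, lay below 1 in 22 and above 1 in 6. Among all expressed genes these shares were 23.5% below and 19.4% above, and among expressed genes of like length 29.8% below and 16.8% above. Among genes of like length at 1 to under 6 FPKM they were 20.6% and 8.18%. By group, over all members, the interval lay below 1 in 7 of 9 alpha, 4 of 19 beta, 6 of 16 gamma and 6 of 12 non-clustered genes. It lay above 1 in 0 alpha, 3 beta, 1 gamma and 2 non-clustered genes. Among the alpha genes below 1, the fragment numbers of PCDHA2, PCDHA4, Pcdha6, Pcdha8 and Pcdha9 were not whole, and Pcdhac1 could not be judged. Their intervals rest on rounded estimates. The ratios of single genes here and below are for the FPKM as deposited. Scaling to equal Actb would multiply each ratio and its interval by 1.32, so calls near 1 would change.

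**Figure D2:**
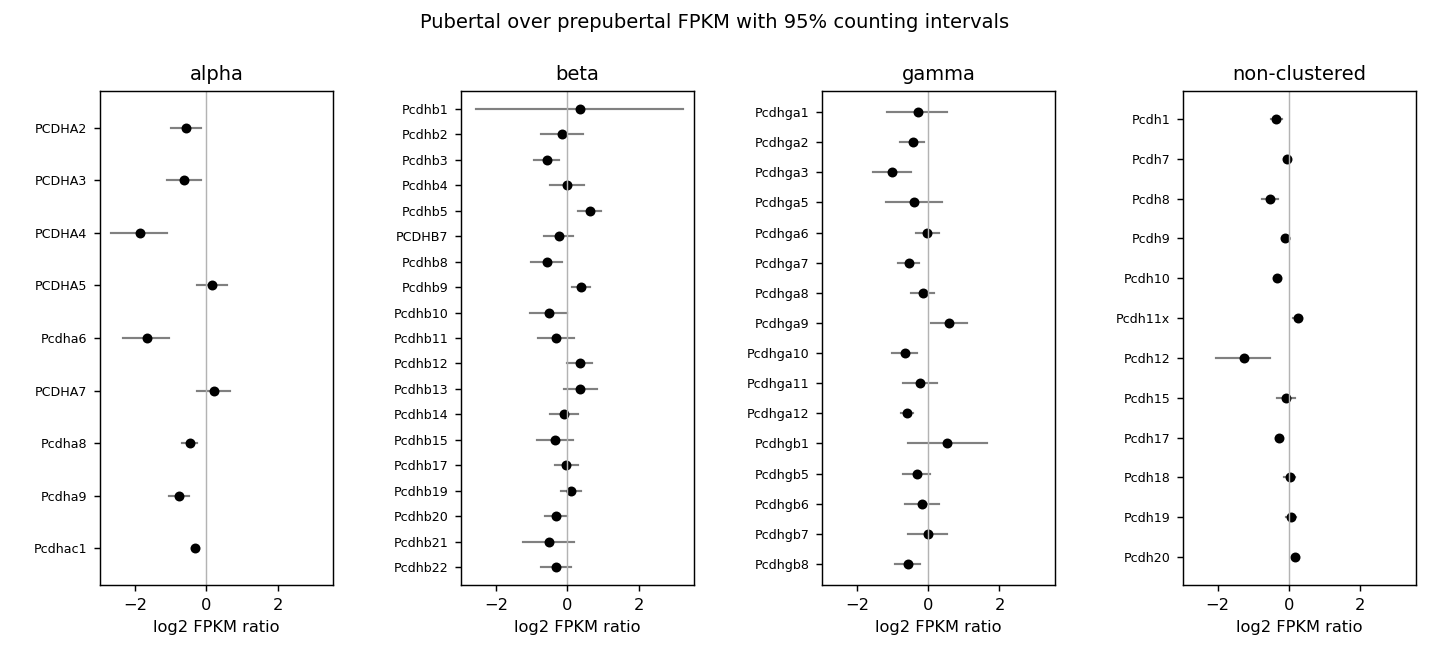
log2 of the pubertal over the prepubertal FPKM (no pseudocount) of each gene, in 1 panel per group, with 95% counting intervals as lines; the vertical line marks no difference. In the alpha panel 7 of 9 intervals lie below 0, and most of these rest on fragment numbers that were not whole. In the beta panel 12 of 19 hold 0. Scaling to equal Actb would move every point to the right by the same amount.

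The alpha and gamma clusters carried the lower sums. Summed over its genes, the alpha cluster had 42.0 FPKM before and 31.2 FPKM at puberty, a ratio of 0.743 (0.704 to 0.784). The gamma cluster had 54.8 and 41.9 FPKM, a ratio of 0.765 (0.719 to 0.814). The beta cluster differed less, with 51.9 and 50.4 FPKM, and its ratio of 0.971 (0.914 to 1.03) held 1. The non-clustered genes, at 261 and 241 FPKM, had a ratio of 0.923 (0.902 to 0.944), against 0.831 (0.803 to 0.859) for the 44 clustered genes together. With equal Actb the sums of beta (0.36 on the log2 scale) and non-clustered genes (0.29) were higher at puberty, while those of alpha and gamma differed by no more than counting error, with ratios of 0.984 (0.932 to 1.04) and 1.01 (0.953 to 1.08). The clustered genes together were then higher, with a ratio of 1.10 (1.06 to 1.14). With equal medians the beta sum was also above 0, at 0.013 on the log2 scale. Any such scaling multiplies all 4 sums by 1 factor, so their order, with alpha and gamma lowest and beta highest relative to the prepubertal library, stayed as it was.

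The counts did not give the same order as the sums, and the medians of beta and non-clustered genes lay too close to be ordered. Lower at puberty were 7 of 9 alpha genes with a median log2 difference of -0.41, 14 of 16 gamma genes with -0.15, 13 of 19 beta genes with -0.09 and 8 of 12 non-clustered genes with -0.09; with equal Actb the last 3 medians turned positive. The beta and gamma medians depended on the pseudocount, since these genes are low: with 0.1 FPKM they were -0.14 and -0.28, against -0.10 for the non-clustered genes. With equal medians the non-clustered median was nearer to 0 (-0.041) than the beta median (-0.054). As shares of the family's summed FPKM, alpha held 10.3% before and 8.57% at puberty, gamma 13.4% and 11.5%, and beta 12.7% and 13.8%. Members of a cluster share sequence and, in alpha and gamma, exons, so they are not independent of each other and no test was made over them.

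**Figure D3:**
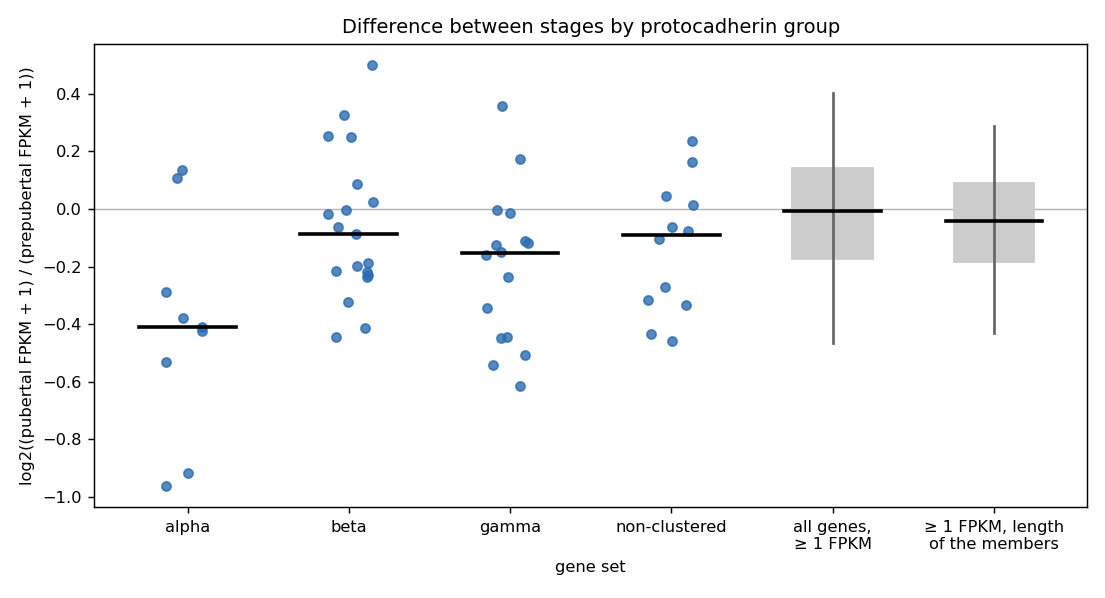
Stage difference, log2((pubertal FPKM + 1) / (prepubertal FPKM + 1)), of each protocadherin gene (points) by group with the group's median (bar), beside all genes of at least 1 FPKM and those within the members' length range (box, middle 50%; line, middle 90%; bar, median). Group medians are -0.41 (alpha), -0.09 (beta), -0.15 (gamma) and -0.09 (non-clustered) against -0.01 and -0.04; with equal Actb all but the alpha median are above 0.

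Alpha genes encode receptors that bind like with like and share a cytoplasmic tail. The highest was Pcdhac1, a C-type gene near the end of the cluster, at 19.6 FPKM before and 15.8 FPKM at puberty. Its ratio was 0.810 (0.756 to 0.868), with 2091 and 1324 fragments behind it. By mean level over both libraries, Pcdha8 followed at 4.96 and 3.58 FPKM (log2 difference -0.38), and PCDHA2 at 3.20 and 2.17 FPKM (-0.41). The level of Pcdhac1 thus stood far above that of every other listed alpha gene in both libraries. Its longest model has 5419 nt, against a median of 2388 nt over the alpha genes. What fragments of shared exons add to its level was not tested.

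The largest difference of the family in FPKM + 1 was that of Pcdha6, at 2.46 FPKM before and 0.773 FPKM at puberty (log2 difference -0.96). Its ratio was 0.315 (0.199 to 0.483), from 111 and 27 fragments. PCDHA4 was at 1.86 and 0.512 FPKM (-0.92), with a ratio of 0.276 (0.156 to 0.464) from 82 and 18 fragments. Both are alternate alpha isoforms with models of 2433 and 2385 nt. Pcdha9 was at 3.05 and 1.80 FPKM, a ratio of 0.591 (0.482 to 0.721). PCDHA3, the remaining alpha gene and outside the naming rule, was at 2.69 and 1.75 FPKM.

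Not all alpha genes were lower. PCDHA7 was at 1.86 FPKM before and 2.14 FPKM at puberty, a ratio of 1.15 (0.828 to 1.60). PCDHA5 was at 2.39 and 2.65 FPKM, a ratio of 1.11 (0.827 to 1.48). Both intervals hold 1, but neither reaches down to the ratios of PCDHA4 and Pcdha6. In 6 of the 9 alpha genes (PCDHA2, PCDHA4, PCDHA5, Pcdha6, Pcdha8 and Pcdha9) a fragment number of up to 300 did not come out whole within 0.1, and the same was true of PCDHB7 and Pcdhb9 in the beta cluster. How fragments were divided among alpha models that overlap or share sequence is therefore uncertain for these genes. Without the 8 genes only PCDHA3, PCDHA7 and Pcdhac1 remain in the alpha cluster, and their sum (-0.29 on the log2 scale) is mostly that of Pcdhac1, whose fragment number could not be judged in this way.

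Beta genes encode receptors without the shared cytoplasmic tail of the other clusters. Of 19 beta genes 17 reached 1 FPKM, and the highest by mean level, Pcdhb9, was at 4.64 FPKM before and 6.07 FPKM at puberty, a ratio of 1.31 (1.11 to 1.55). Pcdhb19 followed at 4.94 and 5.32 FPKM, a ratio of 1.08 (0.880 to 1.31). Pcdhb17 was at 4.11 and 4.05 FPKM, a ratio of 0.985 (0.785 to 1.23). The levels of Pcdhb19 and Pcdhb17 did not differ between the libraries beyond counting error.

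The beta cluster held the family's largest difference toward a higher pubertal level. Pcdhb5 was at 3.19 FPKM before and 4.92 FPKM at puberty (log2 difference 0.50), a ratio of 1.54 (1.24 to 1.92) from 154 and 186 fragments. Pcdhb12 was at 2.53 and 3.21 FPKM, a ratio of 1.27 (1.001 to 1.61). In the other direction, Pcdhb3 was at 4.15 and 2.78 FPKM (-0.44), a ratio of 0.671 (0.524 to 0.855). Pcdhb8 was at 3.17 and 2.13 FPKM (-0.41), a ratio of 0.672 (0.498 to 0.90). Pcdhb10 was at 2.0 and 1.40 FPKM (-0.32), a ratio of 0.70 (0.489 to 0.991). Beta genes thus lay on both sides of 1, and the shown windows of Pcdhb5 and Pcdhb3, on opposite sides, both hold CNCNNGGTGGCGCT. A relation between the motif and the direction was not tested.

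The other 11 beta genes had log2 differences from -0.24 to 0.25, with 9 lower and 2 higher and levels up to 3.75 FPKM before and 3.17 FPKM at puberty. Their lowest was Pcdhb1, singled out after its values were seen, at 0.0656 and 0.0839 FPKM from 3 fragments in each library. Pcdhb1 was also 1 of the 2 beta windows without CNCNNGGTGGCGCT. The other such gene, Pcdhb15, was at 2.04 and 1.61 FPKM, within the range of the 13 genes with the motif (0.887 to 4.94 FPKM in the prepubertal, 0.625 to 6.07 FPKM in the pubertal library). Of those 13 genes, 9 were lower and 4 higher at puberty. Whether the motif bears on level or direction was not tested.

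Gamma genes encode receptors of types A, B and C, which share a cytoplasmic tail. The cluster was led by Pcdhga12, the highest clustered gene outside alpha, at 14.5 FPKM before and 9.61 FPKM at puberty. Its ratio was 0.665 (0.591 to 0.747), from 844 and 439 fragments. Pcdhga7 was at 5.23 and 3.57 FPKM, a ratio of 0.684 (0.552 to 0.844). Pcdhga6, the next by mean level over both libraries, did not differ beyond counting error, at 3.93 and 3.88 FPKM with a ratio of 0.987 (0.784 to 1.24). C-type gamma genes are not among the members, so Pcdhga12 led the listed genes only. The model of Pcdhga12 has 3068 nt, against a median of 2573.5 nt over the gamma genes. What fragments of shared exons add to its level was not tested.

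Pcdhga3 had the largest gamma difference, at 2.23 FPKM before and 1.11 FPKM at puberty (log2 difference -0.62), a ratio of 0.497 (0.339 to 0.716) from 108 and 42 fragments. Pcdhga10 was at 4.18 and 2.64 FPKM (-0.51), a ratio of 0.633 (0.492 to 0.809). Only Pcdhga9 and Pcdhgb1 were higher at puberty in the FPKM as deposited. Pcdhga9 was at 1.29 and 1.94 FPKM, a ratio of 1.5 (1.06 to 2.13). Pcdhgb1 was at 0.404 and 0.585 FPKM, from 15 and 17 fragments, with a ratio interval of 0.680 to 3.11. The opposite directions of Pcdhga9 and Pcdhga10 stood beside promoter windows that both hold the gamma motif, and a relation between the 2 was not tested.

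The other 9 gamma genes were all lower in the FPKM as deposited, with log2 differences from -0.45 to -0.0031 and 2 ratio intervals below 1. Their levels ran from 0.734 to 4.4 FPKM in the prepubertal and from 0.597 to 3.58 FPKM in the pubertal library. The high levels of Pcdhac1 and Pcdhga12 came with long models. The other clustered models over 3000 nt were not high, with at most 4.96 FPKM before (Pcdha8) and 6.07 FPKM at puberty (Pcdhb9). The 7 clustered models over 3000 nt summed to 52.7 and 42.9 FPKM, a ratio of 0.815, and the 37 shorter ones to 96.1 and 80.6 FPKM, a ratio of 0.839. The intervals of these ratios overlapped (0.777 to 0.855 and 0.80 to 0.880), and with equal Actb both sums were higher at puberty, with ratios of 1.08 (1.03 to 1.13) and 1.11 (1.06 to 1.17).

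Delta1 protocadherins have a longer extracellular part than delta2 protocadherins, and several bind a phosphatase through their cytoplasmic tail. Pcdh9 was the highest protocadherin in both libraries, at 75.3 FPKM before and 69.9 FPKM at puberty, a ratio of 0.928 (0.887 to 0.971). Pcdh7 was at 36.4 and 34.8 FPKM, and its ratio of 0.956 (0.902 to 1.01) held 1. Pcdh1 was at 16.2 and 12.7 FPKM (log2 difference -0.33), a ratio of 0.781 (0.703 to 0.868). Pcdh11x, the X-linked member, was the only delta1 gene higher at puberty in the FPKM as deposited. It was at 17.6 and 20.9 FPKM (0.23) with a ratio of 1.19 (1.09 to 1.30). With equal Actb all 4 delta1 genes were higher, with log2 differences from 0.046 (Pcdh1) to 0.62 (Pcdh11x).

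Delta2 protocadherins have a shorter extracellular part, and several bind the WAVE complex, which controls actin. Pcdh10 was at 39.5 FPKM before and 31.5 FPKM at puberty (log2 difference -0.32), a ratio of 0.798 (0.747 to 0.852). Pcdh17, which acts in presynaptic assembly, was at 25.8 and 21.2 FPKM (-0.27), a ratio of 0.823 (0.771 to 0.878). Pcdh8, also called arcadlin and induced by neuronal activity, was at 7.74 and 5.36 FPKM (-0.46), a ratio of 0.692 (0.592 to 0.807). It had the largest difference in FPKM + 1 of the non-clustered genes.

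Pcdh19, the gene of an X-linked epilepsy, was at 11.6 FPKM before and 12.0 FPKM at puberty, a ratio of 1.03 (0.939 to 1.14). Pcdh18 was at 7.69 and 7.78 FPKM, a ratio of 1.01 (0.906 to 1.13). The intervals of these delta2 genes hold 1 and begin above the ratios of Pcdh10, Pcdh17 and Pcdh8. Summed, the 5 delta2 genes had a ratio of 0.844 (0.812 to 0.876) and the 4 delta1 genes one of 0.95 (0.921 to 0.981); with the pubertal library scaled to equal Actb by a factor of 1.32 both sums would be higher at puberty.

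The remaining non-clustered genes were put into neither subfamily here. Pcdh20 was at 17.6 FPKM before and 19.9 FPKM at puberty, a ratio of 1.13 (1.05 to 1.21). Pcdh15, part of the tip link of inner ear hair cells, was at 4.83 and 4.53 FPKM, a ratio of 0.938 (0.788 to 1.11). Pcdh12, known from endothelial cells, was at 0.797 and 0.329 FPKM (log2 difference -0.43), a ratio of 0.413 (0.240 to 0.685) from 65 and 21 fragments. Beside it, the 6 endothelial markers summed to 127 and 134 FPKM, with 4 lower and 2 higher. Among them Kdr was at 2.60 and 1.38 FPKM, Cdh5 at 2.44 and 1.77 FPKM, and Slco1a4 at 29.0 and 43.5 FPKM. Their part in the Pcdh12 difference was not tested.

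By mean level, the order of the non-clustered genes was Pcdh9, Pcdh7, Pcdh10, Pcdh17, Pcdh11x, Pcdh20, Pcdh1, Pcdh19, Pcdh18, Pcdh8, Pcdh15 and Pcdh12. Pcdh10 was above Pcdh7 in the prepubertal and below it in the pubertal library, with counting intervals that did not overlap in either. Pcdh11x overlapped with Pcdh20 in both libraries. Pcdh20 overlapped with Pcdh1, and Pcdh18 with Pcdh8, in the prepubertal library only. Pcdh17 overlapped with Pcdh11x, Pcdh1 with Pcdh19, and Pcdh8 with Pcdh15 in the pubertal library only. The other neighbours in this order differed beyond counting error in both libraries.

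Of the 56 genes 3 are listed with several transcripts. Pcdh10 has 3 models of nearly equal length (3096, 3099 and 3102 nt), whose order of level was not the same in both libraries. ENSRNOT00000064773 was at 17.5 FPKM before and 9.89 FPKM at puberty, or 44.3% and 31.4% of the gene. ENSRNOT00000066542 was at 12.9 and 9.92 FPKM. ENSRNOT00000040187 was at 9.04 and 11.7 FPKM, or 22.9% and 37.0% of the gene. It was the only model with a higher pubertal level in the FPKM as deposited. FPKM of overlapping models are estimates that divide shared fragments, and they carry no counting interval here.

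Pcdh15 is listed with 10 models, of which 2 are listed at 0 in both libraries. ENSRNOT00000068735 was at 1.80 FPKM before and 0.879 FPKM at puberty. ENSRNOT00000065482 was at 1.37 and 0.592 FPKM. ENSRNOT00000066687 was at 0.446 and 1.35 FPKM, or 9.23% and 29.7% of the gene. The sum over models hardly differed while these estimated shares did. Of 2 models of nearly equal length, ENSRNOT00000067698 (5097 nt) was at 0.413 and 0 FPKM, and ENSRNOT00000000744 (5103 nt) at 0.00663 and 0.593 FPKM. How shared fragments were divided among the Pcdh15 models was not tested, so the shares are uncertain. The main model of Pcdhac1 held 88.0% and 88.5% of that gene in the prepubertal and the pubertal library.

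**Figure D4:**
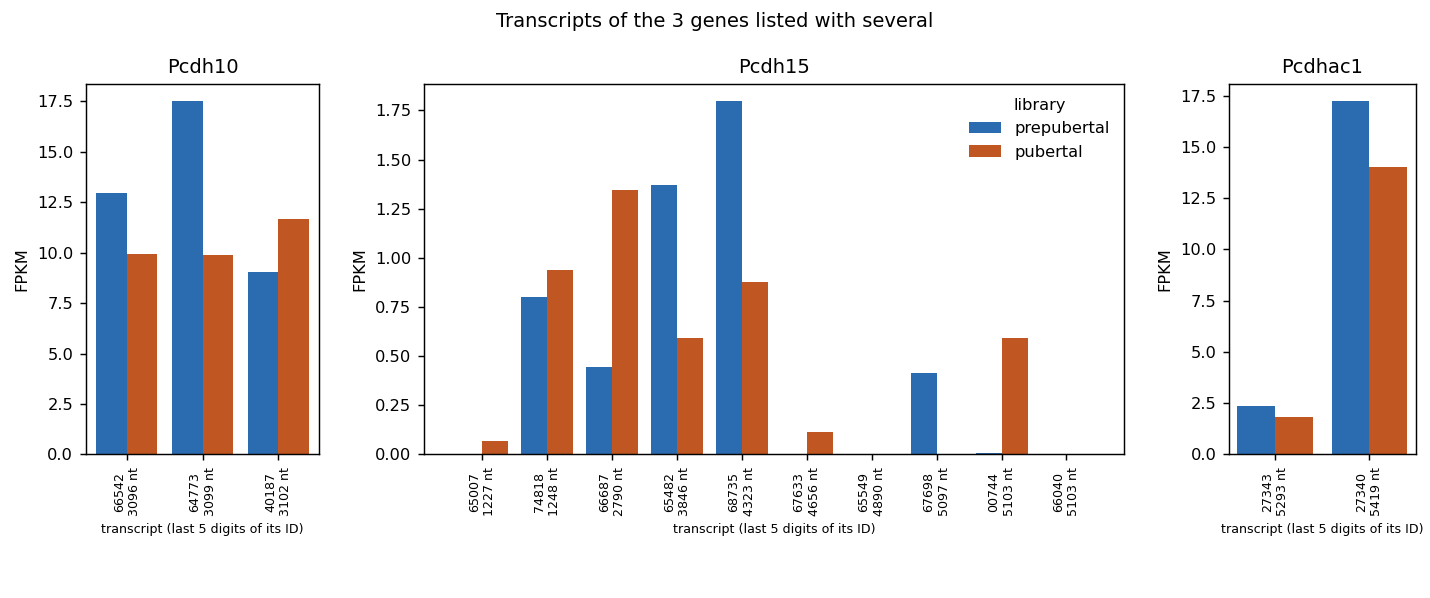
FPKM of each listed transcript of Pcdh10, Pcdh15 and Pcdhac1 in the prepubertal (blue) and the pubertal (orange) library; labels give the end of the transcript ID and the length in nt, and each panel has its own axis. In the FPKM as deposited, the Pcdh10 model ending in 40187 is higher at puberty (9.04 and 11.7 FPKM) while the other Pcdh10 models are lower.

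A list of 77 genes around the protocadherins was set beside them, of which 75 were found by name. In the FPKM as deposited 58 were lower and 17 higher at puberty, with a median log2 difference of -0.14; with equal Actb 16 were lower, beside 10.1% of expressed genes. At 1.5-fold in FPKM + 1, 3 were lower and 1 higher. As deposited, the background was 51.1% lower by any amount among expressed genes, and 1.86% lower and 1.43% higher at 1.5-fold among all genes. Among expressed genes within the length range of the protocadherin genes it was 57.5% lower by any amount. No background was matched to the length and level of the listed genes.

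Among the 13 genes found that act on promoter choice, 9 were lower and 4 higher in the FPKM as deposited, with a median of -0.11 (0.27 with equal Actb). Rad21 and Smc1a, subunits of cohesin, had the highest mean levels, at 58.6 and 52.1 FPKM and at 41.9 and 42.8 FPKM. Dnmt3a, a de novo DNA methyltransferase, had the largest difference of the list, at 20.9 FPKM before and 10.5 FPKM at puberty (-0.93). Beside it, Dnmt3b was at 0.385 and 0.527 FPKM and Dnmt1 at 7.79 and 7.09 FPKM. Ctcf was at 14.4 and 13.6 FPKM.

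Signalling partners were lower in 13 of 16 cases in the FPKM as deposited, with a median of -0.17 (0.23 with equal Actb). Ptk2b, the kinase Pyk2 that the alpha and gamma tails bind and inhibit, was at 24.4 FPKM before and 14.6 FPKM at puberty (log2 difference -0.70). The related kinase Ptk2 was at 33.4 and 30.9 FPKM (-0.11). Ctnnb1, beta-catenin, and Brk1, a WAVE complex subunit, had the highest levels, at 316 and 299 FPKM and at 202 and 220 FPKM. Of 6 proteases that cleave protocadherins 4 were lower and 2 higher, with a median of -0.04 (0.36 with equal Actb). The highest of them were the gamma-secretase subunits Psenen, at 209 and 206 FPKM, and Ncstn, at 41.5 and 37.6 FPKM.

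Other adhesion genes were mostly lower as well in the FPKM as deposited, and their medians too were above 0 with equal Actb. Of 19 classical cadherins and their relatives 15 were lower, with a median of -0.14 (0.21 with equal Actb). Cdh13 and Cdh8 had the highest mean levels over both libraries, at 43.9 and 38.2 FPKM and at 42.4 and 41.0 FPKM, and Cdh4 the largest difference, at 6.27 and 3.61 FPKM (log2 difference -0.66). Of 15 large and atypical cadherins 13 were lower, with a median of -0.27 (0.066 with equal Actb), led in level by the calsyntenins Clstn3, at 202 and 183 FPKM, and Clstn1, at 176 and 142 FPKM. Cdh23, which forms the tip link together with Pcdh15, was higher at puberty, at 1.43 and 2.72 FPKM (0.61).

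**Figure D5:**
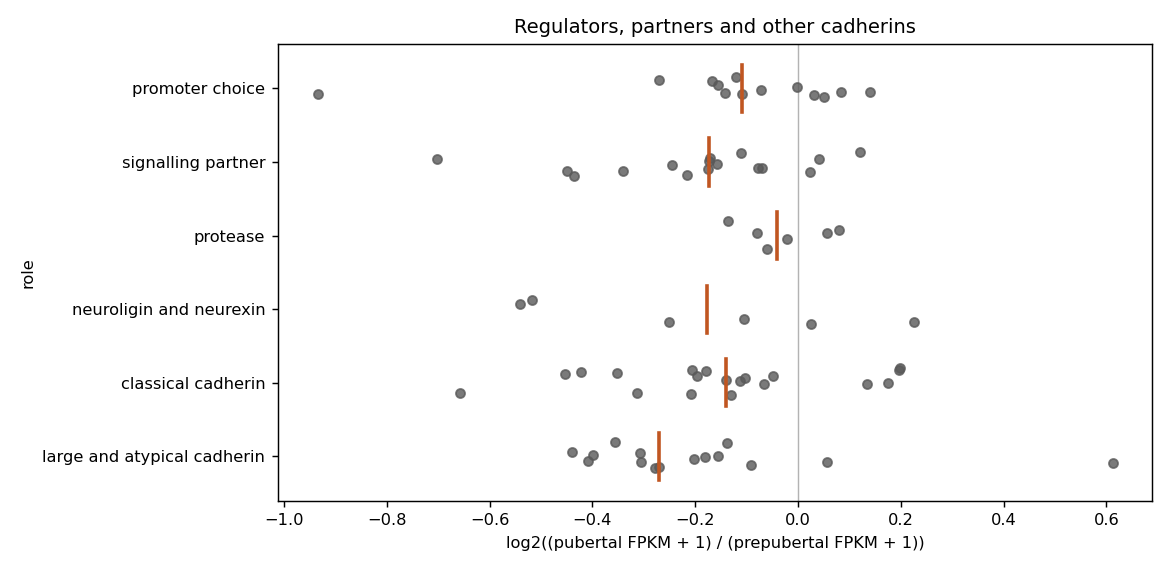
Stage difference, log2((pubertal FPKM + 1) / (prepubertal FPKM + 1)), of the 75 regulators, partners and other adhesion genes found (points), by role, with each role's median (bar). All 6 medians are below 0 in the FPKM as deposited and lie between -0.27 and -0.04, and all 6 turn positive with equal Actb; Dnmt3a (-0.93) lies farthest below 0 and Cdh23 (0.61) farthest above it.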

How the data were processed

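Female rat hypothalamus was analysed as 1 prepubertal and 1 pubertal library. The deposited values are FPKM per transcript, which the authors estimated with Cuffdiff (2.1.1 in the submitters' processing notes, which also name Cufflinks 2.1.1 and the build Rnor_5.0), after alignment of strand-specific paired-end reads with TopHat and assembly with Scripture and Cufflinks. FPKM are scaled for depth and transcript length. The authors' comparison table also holds p-values, q-values and log2 ratios, and none of these was used. The transcript lengths of that table, a deposited column in nt, were used. The lncRNA sequences were not used here.

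FPKM were summed per gene identifier, with all listed transcripts kept and a pseudocount of 1. The 13 mRNA rows that differ between the deposited tables include 0 members. Fragment numbers were obtained from the steps of low FPKM values and the model length less a mean fragment of 258 nt (prepubertal) or 252 nt (pubertal). The method was tried on simulated numbers drawn separately for each transcript. That simulation held no fragments shared between models, so it does not bear on genes whose fragments were divided. On this scale the libraries were normalised to 20765672 and 16208281 fragments. Intervals are exact Poisson for levels and Clopper-Pearson for ratios. For group sums the summed fragment numbers were used. A fragment of a longer model adds less FPKM, so the intervals of sums are approximate and can be too narrow. With 1 column per stage there were no p-values.

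Named genes were all non-clustered members and, in each cluster, C-type genes, the 3 highest by mean FPKM, the 3 with the largest positive and the 3 with the largest negative log2 difference. Of the pathway list, genes of at least 1.5-fold and the 2 highest per role were named, except in 1 role that is not reported here. Genes named beyond this rule (PCDHA3, PCDHB7, Pcdhb1, Pcdhb15, Ctcf, Dnmt1, Dnmt3b, Ptk2, Actb, Kdr, Cdh5, Slco1a4) were chosen after their values were seen. The longer motifs were derived from the promoter windows of the members. Members and lists were chosen with earlier results of these data known. Promoter windows and coordinates come from RefSeq (GRCr8) and were matched by symbol. Alternatives in pseudocount, filter, scaling, choice of transcript, source table and centring were computed. The tools were Python 3.11.15, scipy 1.17.1, numpy 2.4.6 and pandas 2.3.3, with figures drawn in matplotlib 3.10.9.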

Additional observations from a re-analysis of the deposited data

How the results depend on the processing

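With 1 library per stage there is no spread between animals, and depth limits genes of few fragments such as Pcdhb1. No paired analysis was possible because each stage has 1 column. The number of members lower at puberty was 37 of 56 after centring within length or expression classes (49.6% and 50.03% of expressed genes lower), 38 with equal medians (43.1%), 39 with equal upper quartiles (47.9%) and 18 with equal Actb (10.1%), against 42 (51.1%). With equal Actb, beta had 4 lower genes, a median of 0.13 and a sum of 0.36 (log2), gamma 6, 0.058 and 0.019, non-clustered genes 2, 0.28 and 0.29, alpha a median of -0.12 and a sum of -0.024, and the pathway list 16 lower genes. Smaller pseudocounts gave medians of -0.54 (0.1 FPKM) and -0.56 (0.01 FPKM) for alpha and of -0.28 and -0.30 for gamma, and -0.14 and -0.15 for beta. The non-clustered median was -0.041 with equal medians (sum -0.061), -0.037 after centring on length and -0.19 with the highest transcript alone. In alternatives added after seeing the data, leaving out the 8 genes with fragment numbers that were not whole left 2 lower alpha genes of 3, a median of -0.29 and a sum of -0.29. Leaving out the clustered models over 3000 nt left 4 lower alpha genes of 6 and a sum of -0.53. Fewer genes enter these last counts by construction. For the other moves the cause was not tested. The other 141 values of groups and lists moved by less than 1.5 times (counts) or the group's counting error (log2 values), and kept their direction except for the beta sum, which was 0.013 with equal medians. Among them, the gamma median was -0.24 over genes of at least 1 FPKM, and the beta median was -0.14 over genes of at least 0.1 FPKM, -0.054 with equal medians and -0.035 after centring on expression.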

Other observations

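A lncRNA locus, XLOC_152749, is listed in the study as a neighbour of Pcdh17. Its transcript TCONS_00172884, of 2167 nt, was at 14.4 FPKM before and 7.95 FPKM at puberty (log2 difference -0.79). Pcdh17 itself was at 25.8 and 21.2 FPKM (-0.27). With 1 library per stage, no relation between these values could be tested.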
